A study of Mus musculus with 10 samples.

Results

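The regions described here are isolated peaks of trimethylated lysine 27 of histone H3 (H3K27me3) in untreated mouse embryonic stem cells. A peak was taken when no other untreated H3K27me3 peak lay within 3000 bp of it. It also overlapped no untreated peak of H3K4me3, H3K79me2 or RNA polymerase II (Pol II) by 1 bp or more. On chromosomes 1 to 19 and X, 22371 of 97635 untreated H3K27me3 peaks met this rule. They made up 22.9% of the peaks and, with 14.9 Mb, 14.8% of the bases under H3K27me3 peaks.

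The cells were of the R1E line, of C57BL/6X129Sv mixed background, grown with serum and leukemia inhibitory factor for fewer than 20 passages. They were given 0.5 uM Adriamycin for 8 h or left untreated. Chromatin immunoprecipitation and sequencing (ChIP-seq) was done for H3K27me3, H3K4me3, H3K79me2, Pol II and hnRNP L. Each of the 5 targets had 1 library per condition, so no difference between conditions has a replicate check and no p-value is given. The H3K27me3 lists held 88365 peaks after Adriamycin and 97639 in untreated cells, out of 543779 peaks over all 10 lists. Read depth is unknown, so a missing peak means that none is in the list, not that the mark was absent. Intervals below are exact Clopper-Pearson 95% intervals unless another is named, and they cover counting error within a list only.

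H3K27me3 is laid down by the Polycomb repressive complex PRC2. In embryonic stem cells it is best known from CpG-rich promoters of developmental genes, where it often stands with H3K4me3 in a bivalent state, and it also spreads over longer silent stretches. H3K4me3 marks active and poised promoters, H3K79me2 marks transcribed gene bodies, and hnRNP L is an RNA-binding protein. Adriamycin is doxorubicin, a drug that traps topoisomerase II on DNA and leaves breaks. The isolated peaks are places where the untreated lists hold the Polycomb mark with no neighbour and with no peak of H3K4me3, H3K79me2 or Pol II. The lists carry no gene names, so the regions are given by their position on build mm9.

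The isolated peaks were weak and narrow. Each peak carries a score deposited by the authors. On the usual scale of this generation of the MACS caller it is the −log10 of p multiplied by 10, and the lowest score of 50 would stand for a p of 1e-05. The median score was 71.5 (quartiles 58.0 and 101), against 97.1 over all untreated H3K27me3 peaks. Scores below 100 belonged to 16657 of them (74.5%), and 1236 (5.53%) had a score of at least 200. Their median width was 584 bp (quartiles 484.5 and 731 bp), against 715 bp over all H3K27me3 peaks. The 3 other kinds of untreated H3K27me3 peak are set beside them. Isolated peaks that did overlap another target numbered 3314, with a median score of 121 and a median width of 844.5 bp. Peaks with a neighbour and no other target numbered 59155 (99.0 and 717 bp), and peaks with a neighbour and another target 12795 (326 and 1573 bp). The rule used these lists, so the figures are a description.

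The gap to the nearest other H3K27me3 peak had a median of 8828 bp (quartiles 4864 and 21413 bp). It was over 10 kb for 10233 peaks (45.7%), over 100 kb for 1167 (5.22%) and over 1 Mb for 6. The nearest neighbour was itself an isolated peak without another target in 12408 cases (55.5%), and a peak with a neighbour of its own and no other target in 7688 (34.4%). At the edge of the rule, the 1894 peaks with a gap over 3000 and up to 3500 bp had a median score of 78.9 and a median width of 632 bp. The 2330 just outside it, with a gap over 2500 and up to 3000 bp, had 77.2 and 631 bp. The 109 isolated peaks that had another target 1 to 100 bp away had a median score of 84.0, and the 89 that overlapped one by 1 to 100 bp, and so were left out, 96.1.

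Each of the other targets lay over 5 kb from most isolated peaks. In the Adriamycin lists the median distance from an isolated peak to the nearest peak was 28133 bp for H3K4me3, 43147 bp for Pol II and 121048 bp for H3K79me2. In the untreated lists these distances were 31251, 40029 and 121801 bp in the same order. H3K4me3 lay within 5 kb of 2847 isolated peaks (12.7%) in the Adriamycin list and of 2445 (10.9%) in the untreated list. Pol II did so at 2587 (11.6%) in the Adriamycin list and 2355 (10.5%) in the untreated list, and H3K79me2 at 597 (2.67%) and 584 (2.61%). The nearest hnRNP L peak lay at a median of 1959115 bp in the Adriamycin list and 1701884 bp in the untreated list. The untreated values of H3K4me3, H3K79me2 and Pol II hold no overlaps, by the rule. Distances were summarised for isolated peaks only, so they do not show whether isolated peaks differ from other H3K27me3 peaks.

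**Figure D1:**
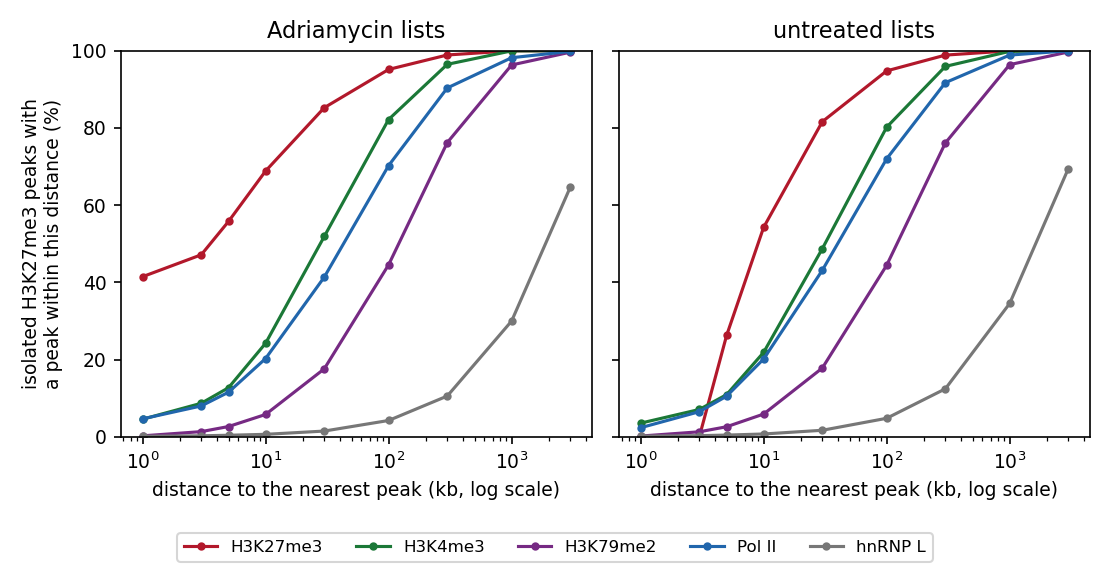
Share of the 22371 isolated H3K27me3 peaks (y axis, %) with a peak of each target within a distance in kb (x axis, log scale), in the Adriamycin lists (left) and the untreated lists (right); each line is 1 list. The untreated H3K27me3 line stays at 0% up to 3 kb because of the rule, while 41.5% had an H3K27me3 peak within 1 kb in the Adriamycin list.

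The question put to the Adriamycin list of H3K27me3 was which isolated peaks were found again. A partner was any Adriamycin H3K27me3 peak that overlapped by at least 1 bp. Of the isolated peaks 14141 had none, or 63.2% (62.6 to 63.8%). Over all untreated H3K27me3 peaks 41.2% had none. Among the isolated peaks without a partner, 1049 (7.42%) had an Adriamycin H3K27me3 peak within 1 kb and 9889 (69.9%) lay over 5 kb from one. The rule asks for over 3000 bp to other untreated H3K27me3 peaks, which favours long distances here too. Other H3K27me3 peaks without a partner were not measured this way. By bases, 33.0% of the length of the isolated peaks lay under Adriamycin H3K27me3 peaks. That share was 59.1% for isolated peaks with another target, 55.7% for peaks with a neighbour and no other target, and 78.0% for peaks with both.

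The share without a partner was lower at higher scores. It was 83.2% (81.6 to 84.8%) of the 2237 lowest-scoring isolated peaks, with scores of 50 to 52.87, and 14.9% (13.5 to 16.5%) of the 2238 highest-scoring ones, with scores of 154.16 and above. Isolated peaks with a partner had a median score of 95.7 and a median width of 685 bp, and those without one 64.7 and 541 bp. Within like scores the isolated peaks were still found again less often than peaks with a neighbour. At scores of 50 to 60, 81.1% (80.1 to 82.0%) of isolated peaks had no partner, against 68.2% (67.3 to 69.1%) of peaks with a neighbour and no other target. At 100 to 200 the shares were 39.3% (37.9 to 40.8%) and 26.6% (26.0 to 27.3%), and at 200 and above 7.44% (6.04 to 9.05%) and 4.50% (4.15 to 4.88%).

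Over scores of 50 to 100, the share without a partner was 73.8% for isolated peaks and 58.2% for peaks with a neighbour and no other target. The difference was 15.6 percentage points (Newcombe 95% interval 14.7 to 16.4). It was above 0 on 20 of 20 chromosomes, between 10.1 and 19.6 points. The order was the same within widths. Among peaks of these scores and up to 500 bp, 82.5% of isolated peaks and 69.5% of peaks with a neighbour had no partner, and among those over 700 bp 59.7% and 46.8%. At the edge of the rule the difference was small. Over all scores, 57.0% (54.8 to 59.3%) of isolated peaks with a gap over 3000 and up to 3500 bp had no partner, against 54.5% (52.5 to 56.6%) of those just outside, with a gap over 2500 and up to 3000 bp, and the intervals overlap. When a partner had to cover 50% or more of whichever peak was shorter, the difference at scores of 50 to 100 was 13.7 points. When any Adriamycin peak within 1000 bp was accepted it was 35.9 points, but peaks with a neighbour have another H3K27me3 peak within 3000 bp by definition, whose own partner can then be counted.

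Set against isolated peaks that overlapped another target, the difference was smaller. Of those scoring 50 to 100, 67.3% (64.7 to 69.8%) lacked a partner. The isolated peaks without another target were 6.49 percentage points higher (Newcombe interval 3.95 to 9.11). The difference was above 0 on 17 of 20 chromosomes and ran from -6.72 to 17.4 points. Among peaks up to 500 bp the shares were 82.5% (81.5 to 83.4%) and 78.4% (73.4 to 82.8%), whose intervals overlap. Among peaks over 700 bp they were 59.7% and 60.04%, within each other's intervals. At scores of 200 and above the shares were 7.44% and 6.58% (5.17 to 8.23%), again within each other's intervals.

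**Figure D2:**
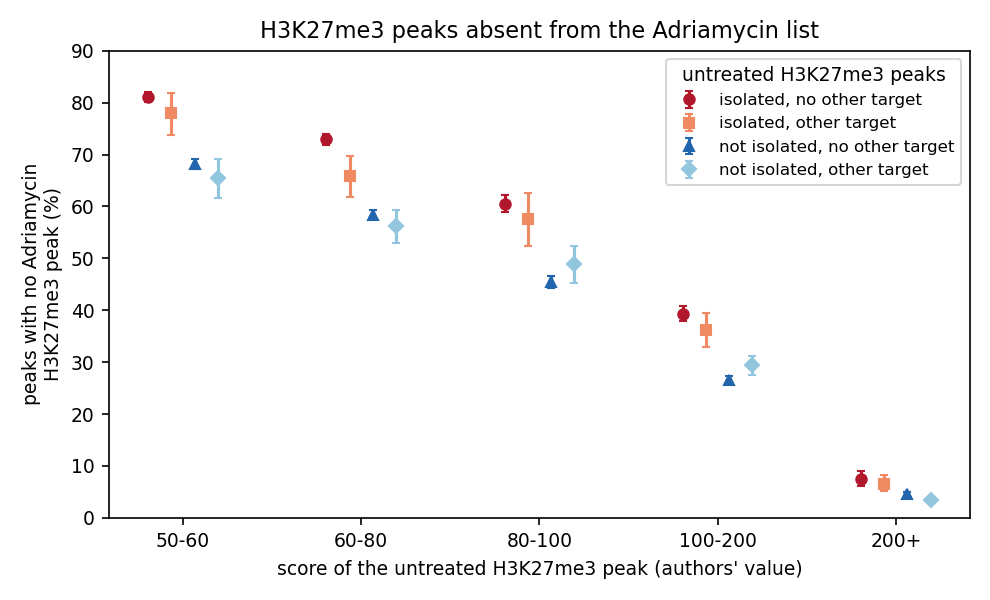
Share of untreated H3K27me3 peaks with no Adriamycin H3K27me3 peak (y axis, %) by the authors' score (x axis), in 4 kinds of peak; bars are exact 95% intervals for counting error. Isolated peaks without another target lie at 81.1% in the lowest bin and 7.44% in the highest, above peaks with a neighbour and no other target (68.2% and 4.50%).

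Among the isolated peaks themselves, those far from any other H3K27me3 peak were found again less often. No partner was found for 58.4% (57.1 to 59.7%) of those with a gap of 3 to 5 kb and for 72.2% (69.5 to 74.7%) of those with a gap over 100 kb. Their median scores were 76.5 and 65.7. At scores of 50 to 60 the shares were 78.0% (75.9 to 80.1%) and 85.2% (81.6 to 88.4%), and at 60 to 80 they were 70.0% (67.7 to 72.2%) and 77.8% (73.1 to 82.0%). At 100 to 200 the shares were 38.8% (36.2 to 41.5%) and 46.4% (38.9 to 54.0%), whose intervals overlap. At 200 and above no order with distance was seen, with 7.39% at 3 to 5 kb and 3 of 49 peaks (6.12%) over 100 kb.

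**Figure D3:**
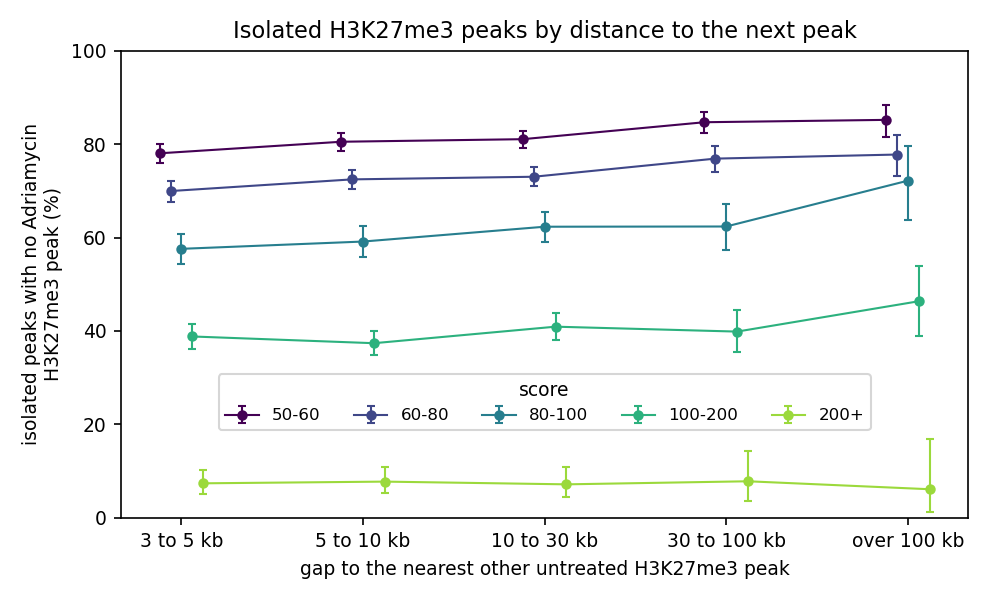
Share of isolated H3K27me3 peaks with no Adriamycin H3K27me3 peak (y axis, %) by the gap to the nearest other untreated H3K27me3 peak (x axis), with 1 line per score bin; bars are exact 95% intervals for counting error. At scores of 50 to 60 the share is 78.0% at 3 to 5 kb and 85.2% over 100 kb, while at 200 and above it stays between 6.12% and 7.83%.

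The share without a partner was also higher far from H3K4me3. Over all scores it was 51.8% (48.3 to 55.4%) for isolated peaks within 1 kb of an untreated H3K4me3 peak and 69.0% (67.6 to 70.4%) for those over 100 kb from one. At scores of 50 to 100, 67.7% (63.3 to 71.9%) of those within 1 kb had no H3K27me3 partner, against 76.8% (75.4 to 78.2%) of those over 100 kb away. The 793 isolated peaks within 1 kb had a median score of 88.6, and the 4430 over 100 kb away 67.0.

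The partners of the 8230 isolated peaks that had one were classed by the same rule. The Adriamycin partner met the same rule in the Adriamycin lists for 5592 of them (67.9%, 66.9 to 69.0%). It was no longer isolated in 2312 (28.1%), and it overlapped H3K4me3, H3K79me2 or Pol II in 449 (5.46%). Over the whole Adriamycin H3K27me3 list 22.3% of peaks met the rule. Partners of other kinds of H3K27me3 peak were not counted this way, so whether isolated peaks kept their kind more often was not tested. Matched 1 to 1, 7829 pairs had a median width of 554 bp in the Adriamycin list and 673 bp in the untreated list. The median difference was -101 bp (quartiles -231 and 2 bp), and 5837 of the pairs (74.6%) were narrower after Adriamycin. Over all matched H3K27me3 pairs 76.2% were narrower, so the share among isolated peaks was near that of H3K27me3 peaks at large.

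The same rule was then applied to the Adriamycin lists and held against the untreated ones. It took 19731 Adriamycin H3K27me3 peaks, of which 9716 had no untreated partner (49.2%, 48.5 to 49.9%), against 27% of all Adriamycin H3K27me3 peaks. Peaks picked as isolated in either list were thus missing from the other list more often than H3K27me3 peaks at large. The shares without a partner were higher from the untreated side at like scores, at 81.1% for untreated and 67.7% (66.5 to 68.8%) for Adriamycin isolated peaks at 50 to 60, and at 39.3% and 19.9% (18.6 to 21.3%) at 100 to 200. At scores of 200 and above, 92 of 1236 untreated isolated peaks and 7 of 803 Adriamycin isolated peaks had no partner. Scores of the 2 lists rest on their own read depths, which are unknown, so like scores need not mean like enrichment. With the untreated H3K27me3 list cut to its 88363 top-scoring peaks, the length of the Adriamycin list, the shares over all scores were 58.7% for untreated and 53.0% for Adriamycin isolated peaks.

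The strongest isolated peaks were found in both H3K27me3 lists. All 33 with a score of at least 1000 had a partner, and the partner's score was lower in 31 of them (range 75.28 to 2186.43, median 839). They were picked by a high untreated score, which by itself favours a lower score in the other list. The Adriamycin H3K27me3 list also held fewer peaks of at least 1000 at large, 2411 against 4203 in the untreated list. Equally strong H3K27me3 peaks of other kinds were not compared. The cause of the lower scores was not tested, and they are not read as a loss at these peaks. The 33 peaks had a median width of 2802 bp, they lay on 16 chromosomes, and 8 had no other H3K27me3 peak within 30 kb. An untreated H3K4me3 peak lay within 1 kb of 6 and within 5 kb of 9.

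The highest score belonged to a peak on chromosome 6 at 7503740-7507259, with 3100 in untreated cells, which a second peak shared. Its Adriamycin H3K27me3 peak scored 1659.15 and covered 93.9% of it. An H3K4me3 peak of score 224.86 lay in it in the Adriamycin list, while the nearest untreated H3K4me3 peak was 56383 bp away. The lists of H3K79me2, Pol II and hnRNP L held no peak there in either condition. Exactly 3100 was also the top score among isolated Adriamycin H3K27me3 peaks with another target, so it may be a set value. It is not the limit of the scale, since the untreated H3K27me3 list reaches 3233.06. The tie, and any fall from 3100, should not be read as exact.

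A pair of strong isolated peaks lay close together on chromosome 18. The first, at 37120946-37122763, scored 826.78 after Adriamycin and 3100 in untreated cells, and the second, at 37127936-37130020, 1950.71 after Adriamycin and 2772.07 in untreated cells. Both held an H3K4me3 peak in the Adriamycin list, with scores of 221.61 and 86.03. In the untreated list the nearest H3K4me3 peak was 199 bp from the first and 3265 bp from the second. Neither held H3K79me2, Pol II or hnRNP L in any list.

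The peak on chromosome 2 at 89225004-89230473 was both among the strongest and among the widest, and it stood alone. It scored 2186.43 after Adriamycin and 2940.82 in untreated cells and was 5114 bp and 5470 bp wide. The next untreated H3K27me3 peak was 1187115 bp away. The other 4 targets had no peak in it in any list, and the nearest H3K4me3 peak was 415043 bp away after Adriamycin and 415116 bp in untreated cells. The fifth strongest, on chromosome 15 at 79290863-79294263, scored 1105.07 after Adriamycin and 2415.78 in untreated cells. Untreated H3K4me3 and Pol II peaks lay 262 and 365 bp from it, and in the Adriamycin lists the nearest lay 4304 and 4305 bp away.

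The widest isolated peak spanned 18440 bp on chromosome 2 at 116371446-116389885. It was nearly the same in both lists, with a width of 18356 bp and a score of 1811.31 after Adriamycin and a score of 1537.99 in untreated cells. The peak on chromosome 11 at 3090857-3097460 came next with 6604 bp. Its Adriamycin partner was 1813 bp wide, covered 27.5% of it and scored 601.65, against 310.53 in untreated cells. H3K4me3, Pol II and H3K79me2 peaks lay between 3690 and 5406 bp from it in the Adriamycin lists and between 3666 and 5208 bp in the untreated lists.

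The 3 most remote isolated peaks scored above the median of isolated peaks. The peak on chromosome X at 127037567-127038213 had no other untreated H3K27me3 peak within 3084162 bp. It scored 66.41 after Adriamycin and 74.9 in untreated cells. Next came chromosome X at 85358851-85359653 (score 107.81, gap 1738384 bp) and chromosome 17 at 94996871-94997411 (score 83.57, gap 1391274 bp). Neither of these had a partner, and the nearest Adriamycin H3K27me3 peak was 1738046 bp and 610070 bp away.

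Strong isolated peaks without any H3K27me3 nearby in the Adriamycin list were few. At scores of 200 and above, 7.44% of isolated peaks had no partner, against 4.37% of all untreated H3K27me3 peaks. Higher scores were counted for isolated peaks only. At a score of at least 500, 4 of 161 had no partner, and 3 of these lay over 5 kb from any Adriamycin H3K27me3 peak. These 3 were on chromosome 6 at 125473608-125475174 (score 730.33, next Adriamycin peak 19087 bp away), chromosome 2 at 172356373-172359726 (594.59, 5002 bp) and chromosome 10 at 20345800-20348381 (594.41, 8523 bp). No other target had a peak in them in either condition. The next 2 were on chromosome 5, at 37302900-37305918 (461.9) and 21065706-21067978 (432.32). The last of these held an H3K4me3 peak of score 51.09 in the Adriamycin list and none in the untreated list, where the nearest was 25746 bp away.

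In the other direction, no isolated Adriamycin peak with a score of at least 500 lacked an untreated partner, out of 92. At 200 and above, 0.872% (0.351 to 1.788%) of isolated Adriamycin peaks lacked one, against 0.545% of all Adriamycin H3K27me3 peaks. The strongest over 5 kb from any untreated H3K27me3 peak were on chromosome 6 at 93460053-93461147 (score 243.35), chromosome 1 at 135285207-135286203 (214.03) and chromosome 18 at 74560856-74561894 (208.07). None of these held another target in any list.

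The question put to the other Adriamycin lists was whether a promoter mark or polymerase was found at places that lacked them in untreated cells. The rule leaves each isolated peak without these targets in the untreated lists, so any overlap is with a peak listed there in the Adriamycin list alone. Pol II was found at 643 isolated peaks (2.87%, 2.66 to 3.10%), H3K4me3 at 211 (0.943%, 0.821 to 1.08%) and H3K79me2 at 23 (0.103%, 0.0652 to 0.154%). At least 1 of the 3 was found at 843 (3.77%). Among all untreated H3K27me3 peaks that lacked the target in question, the shares were 3.26% for Pol II, 1.67% for H3K4me3 and 0.274% for H3K79me2. Among those that lacked all 3, 4.07% held at least 1 in the Adriamycin lists. The shares by target come from a wider set, which also holds peaks with 1 of the other targets. Peaks with a neighbour and none of the 3 targets are more alike. They gave 2.49% (2.37 to 2.62%) for Pol II, 1.73% (1.63 to 1.84%) for H3K4me3 and 0.139% (0.110 to 0.172%) for H3K79me2. Against these, isolated peaks were higher for Pol II and lower for H3K4me3, and the H3K79me2 intervals overlap. Targets seldom came together, with H3K4me3 and Pol II at 29 isolated peaks, H3K79me2 and Pol II at 4, H3K4me3 and H3K79me2 at 1, and all 3 at 0.

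The Adriamycin peaks that lay in isolated H3K27me3 peaks were weak ones of their lists. The rule keeps out places with an untreated peak of the target, while the whole lists also hold such places. The lower scores are thus a description, and no like set of peaks was compared. The Pol II peaks had a median score of 66.2, against 101 over the Adriamycin Pol II list, and 3 of 643 reached 500. The H3K4me3 peaks had a median of 87.8, against 335 over their list, and 11 of 211 reached 500. The H3K79me2 peaks had a median of 68.0, against 152. Most of these isolated H3K27me3 peaks had no untreated peak of the target within 1 kb, but more of them had one than isolated peaks at large. An untreated Pol II peak lay within 1 kb of 38 of the 643 with Pol II (5.91%), against 2.36% of all isolated peaks. An untreated H3K4me3 peak lay within 1 kb of 29 of the 211 with H3K4me3 (13.7%), against 3.54% of all. For H3K79me2, 2 of the 23 had an untreated peak within 1 kb (8.70%), against 0.197% of all. Within 5 kb, 9 of the 23 had one, against 2.61% of all.

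Pol II after Adriamycin was found more often at stronger isolated peaks. It overlapped 1.43% (1.16 to 1.74%) of those with scores of 50 to 60, 4.22% (3.65 to 4.85%) at 100 to 200 and 8.09% (6.63 to 9.75%) at 200 and above. Peaks with a neighbour and no other target held it less often at like scores, in 2.77% (2.52 to 3.03%) at 100 to 200 and 4.27% (3.93 to 4.64%) at 200 and above. At all scores of 100 and above the shares were 5.06% (4.50 to 5.66%) and 3.41% (3.21 to 3.63%), and the isolated peaks had the higher share on 18 of 20 chromosomes. At 50 to 60 the intervals overlapped, with 1.43% and 1.17% (0.967 to 1.404%). Width moved with score, with a median of 1100.5 bp among the 2238 highest-scoring isolated peaks and 474 bp among the 2237 lowest-scoring, and a wider peak has more room for an overlap. Among isolated peaks up to 500 bp, Pol II lay at 6.99% (4.26 to 10.7%) with scores of 100 and above and at 1.49% (1.21 to 1.82%) with scores of 50 to 100. Among those over 700 bp the shares were 4.72% (4.09 to 5.42%) and 3.36% (2.68 to 4.16%), whose intervals overlap. Against peaks with a neighbour, at scores of 100 and above, the shares over 700 bp were 4.72% and 3.53% (3.30 to 3.77%).

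For H3K4me3 the order was not the same. At scores of 50 to 100 it overlapped 0.546% (0.440 to 0.670%) of isolated peaks and 0.808% (0.710 to 0.916%) of peaks with a neighbour, and at 200 and above 4.69% (3.58 to 6.02%) and 4.22% (3.87 to 4.58%), whose intervals overlap.

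**Figure D4:**
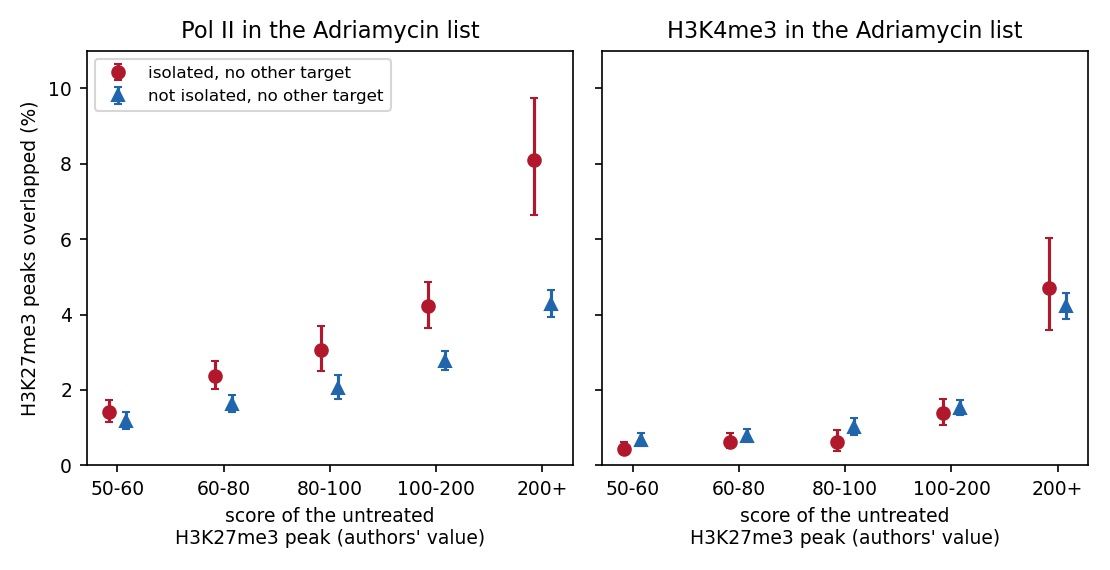
Share of untreated H3K27me3 peaks without H3K4me3, H3K79me2 or Pol II (y axis, %) that overlap a Pol II peak (left) or an H3K4me3 peak (right) of the Adriamycin lists, by the authors' score of the H3K27me3 peak (x axis); bars are exact 95% intervals for counting error. At 200 and above, Pol II lies at 8.09% of isolated peaks and 4.27% of peaks with a neighbour, and H3K4me3 at 4.69% and 4.22%.

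Pol II after Adriamycin was more frequent where an H3K27me3 peak was also listed after Adriamycin. It was found at 369 of the 8230 isolated peaks with an H3K27me3 partner (4.48%, 4.05 to 4.95%) and at 274 of the 14141 without one (1.94%, 1.72 to 2.18%). At scores of 50 to 100 the shares were 3.11% (2.62 to 3.67%) and 1.77% (1.55 to 2.02%). Peaks with a partner were also the wider ones, with medians of 685 and 541 bp. At these scores and widths over 500 and up to 700 bp the shares were 3.22% (2.54 to 4.03%) and 1.86% (1.52 to 2.25%), while up to 500 bp and over 700 bp the intervals overlapped. For H3K4me3 the shares over all scores were 1.46% with a partner and 0.644% without one, and at scores of 50 to 100 0.664% (0.445 to 0.952%) and 0.505% (0.387 to 0.646%), whose intervals overlap. The order for Pol II is not particular to isolated peaks. Among peaks with a neighbour and no other target, Pol II lay at 3.05% with a partner and 1.57% without one. At scores of 50 to 100 those shares were 1.95% (1.71 to 2.21%) and 1.34% (1.17 to 1.52%).

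The reverse count came from the isolated peaks of the Adriamycin lists. Of these 19731, an untreated Pol II peak lay at 420 (2.13%, 1.93 to 2.34%), an untreated H3K4me3 peak at 108 (0.547%, 0.449 to 0.660%) and an untreated H3K79me2 peak at 41 (0.208%, 0.149 to 0.282%). Over all Adriamycin H3K27me3 peaks without the target in the Adriamycin list, these shares were 2.91%, 1.21% and 0.465%. That wider set also holds peaks with 1 of the other targets. Adriamycin peaks with a neighbour and none of the 3 targets gave 1.41% (1.31 to 1.51%), 1.24% (1.15 to 1.34%) and 0.187% (0.152 to 0.227%). At isolated peaks, the shares counted in the Adriamycin lists were thus the higher ones for Pol II and H3K4me3. For H3K79me2 it was the lower one, with intervals that overlap. The order was the same at peaks with a neighbour and none of the 3 targets, where the Adriamycin lists gave 2.49%, 1.73% and 0.139%. It is thus not particular to isolated peaks. Isolated peaks were also wider in the untreated list, with a median of 584 bp against 497 bp, which leaves more room for an overlap. The Pol II lists held 59426 peaks after Adriamycin and 81069 in untreated cells. At scores of 100 and above the Pol II shares were 5.06% in the Adriamycin list and 3.21% (2.70 to 3.78%) in the untreated list, while at 50 to 60 they were 1.43% and 1.68% (1.37 to 2.02%), whose intervals overlap. Like scores in the H3K27me3 lists need not mean like enrichment here either.

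Single regions show what these overlaps look like. The strongest isolated peak with Pol II after Adriamycin was on chromosome X at 137530435-137534064, with H3K27me3 scores of 1773.84 after Adriamycin and 2144.48 in untreated cells. It held 2 Pol II peaks in the Adriamycin list, the higher with a score of 125.39, and the nearest untreated Pol II peak was 39007 bp away. Chromosome 3 at 35123164-35124553 and chromosome 15 at 84255799-84258513 followed, with Pol II scores of 59.7 and 66.09. H3K27me3 there scored 605.91 and 839.3 after Adriamycin, against 1544.56 and 1152.8 in untreated cells.

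For H3K79me2, the strongest isolated peak was on chromosome 5 at 35337213-35338647. It scored 194.89 for H3K27me3 in untreated cells and had no partner, and an H3K79me2 peak of score 201.27 overlapped it in the Adriamycin list. The nearest untreated H3K79me2 peak was 2107 bp away. The other 2 were on chromosome 13 at 93382690-93383588 and chromosome 11 at 80591527-80592102, with H3K79me2 scores of 61.06 and 63.38 after Adriamycin. Both had an H3K27me3 partner, and both had H3K4me3 peaks within 319 bp of them in both conditions without overlap.

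hnRNP L was rare at isolated peaks. It was found at 20 in the Adriamycin list and at 29 in the untreated list, 13 of them in both. At least 1 list had it at 36 (0.161%, 0.113 to 0.223%), against 0.217% of all untreated H3K27me3 peaks. Peaks with a neighbour and no other target gave a like share (0.157%), and isolated peaks with another target 1.09% (0.762 to 1.501%). Of the 36, 11 had no Adriamycin H3K27me3 partner (30.6%, 16.3 to 48.1%) and the median H3K27me3 score was 95.6.

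The 3 strongest of these were on chromosomes 4 and X. On chromosome 4 at 100984650-100987797, hnRNP L scored 54.13 in untreated cells and had no peak after Adriamycin, and H3K27me3 scored 591.06 after Adriamycin and 1986.53 in untreated cells. The other 2 lay within 100 kb of each other on chromosome X. At 166429306-166434415 hnRNP L had 2 peaks after Adriamycin (the higher with a score of 184.01) and 1 in untreated cells (119.22). At 166504701-166506207 it had none after Adriamycin, with the nearest 1262 bp away, and 1 in untreated cells (182.64), and a Pol II peak of score 197.95 was found there only in the Adriamycin list.

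Isolated peaks differed less in density between the numbered chromosomes than H3K27me3 peaks at large. On the numbered chromosomes they stood at 7.80 (chromosome 12) to 10.8 (chromosome 11) per Mb, a ratio of 1.39. All untreated H3K27me3 peaks stood at 28.4 (chromosome 3) to 59.7 (chromosome 11) per Mb, a ratio of 2.10. Isolated peaks made up 18.1% of the H3K27me3 peaks on chromosome 11 and 29.5% on chromosome 3. The rule itself favours this, since fewer peaks can lack a neighbour within 3000 bp where peaks are dense. The smaller spread is thus a description, and how much of it comes from the rule was not tested. Chromosome X had 264 isolated peaks, or 1.58 per Mb, and 6.62 H3K27me3 peaks of any kind per Mb. How much of each chromosome could be mapped was not used here.

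**Figure D5:**
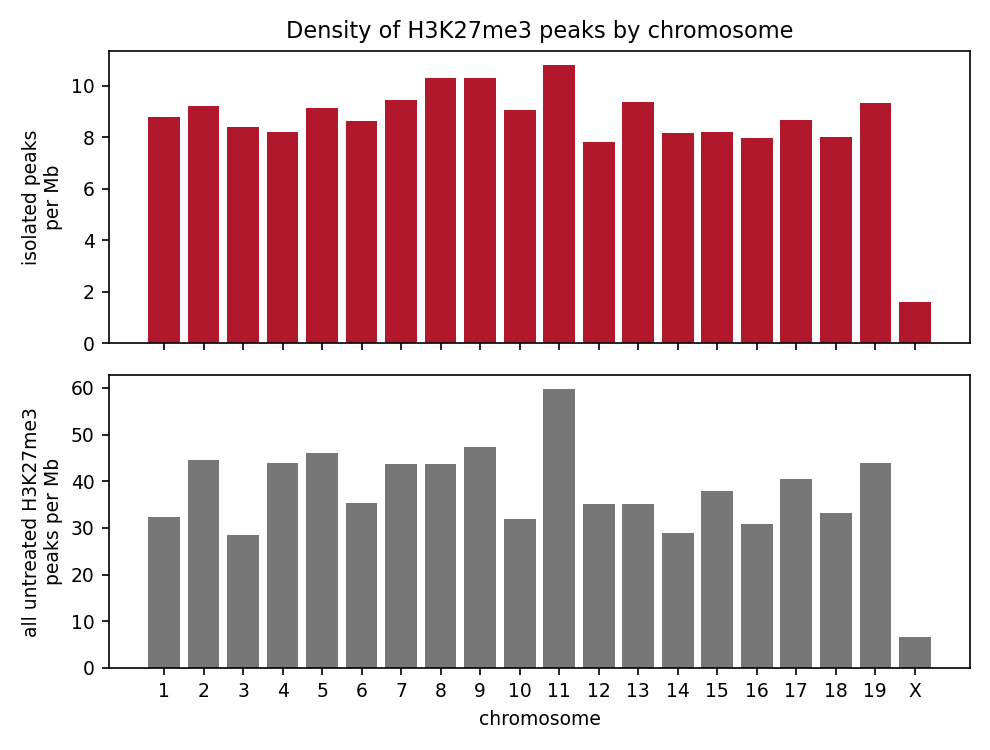
Isolated H3K27me3 peaks per Mb (top) and all untreated H3K27me3 peaks per Mb (bottom) on each chromosome (x axis), counted up to the last peak of any list; bars start at 0. Isolated peaks range from 7.80 to 10.8 per Mb on the numbered chromosomes, all peaks from 28.4 to 59.7, and chromosome X has 1.58 and 6.62.

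The share without an Adriamycin partner differed little between chromosomes. It ran from 58.7% on chromosome 19 to 65.8% on chromosome 6, and was 67.4% on chromosome X, where the interval of 61.4 to 73.0% spans most of that range. Median scores ran from 68.4 on chromosome X to 74.0 on chromosome 18. In windows of 10 Mb with at least 50 isolated peaks (201 windows), the share had a median of 64.0% and ran from 44.2% to 77.3%. The lowest were on chromosome 4 at 150000001-160000000 (38 of 86 peaks) and chromosome 18 at 50000001-60000000 (40 of 87). The highest were on chromosome 6 at 30000001-40000000 (85 of 110) and chromosome 10 at 1-10000000 (51 of 66). These are the ends of 201 values, and windows at the ends were picked by their values.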

How the data were processed

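Peaks of 10 ChIP-seq libraries, 1 per target and condition, were used as lists deposited by the authors. CASAVA 1.8.2, MACS 1.4.1 and build mm9 are listed in the submitters' processing notes. The deposited score of each peak ranks and filters peaks within its own list. The sources used here do not state input, duplicate reads, pooling or depth.

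Coordinates are 1-based on mm9. Partners and other targets were peaks overlapping by at least 1 bp. Interval steps were tested on simulated lists. Isolated peaks were classed on chromosomes 1 to 19 and X. Members, lists and bins were chosen with earlier results of these data known. The regions named are, by rule, the 5 strongest isolated peaks, the 5 strongest over 5 kb from Adriamycin H3K27me3, the 3 strongest with each other target or hnRNP L, the 3 most remote, the 3 widest, and the 3 strongest of the Adriamycin list over 5 kb from untreated H3K27me3. Bins of gap, windows, the lowest and highest scores as groups and the Pol II counts by chromosome and width were added after values had been seen. No annotation or sequence on mm9 was used, so gene counts were not made. Marker genes of the cell type could not be checked in these lists. Steps ran in Python 3.11.15 with pandas 2.3.3 and numpy 2.4.6; intervals came from SciPy 1.17.1 and plots from matplotlib 3.10.9. The closing section gives the effect of the alternatives.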

Additional observations from a re-analysis of the deposited data

Results flagged for a closer look

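The untreated H3K27me3 list held 4 peaks on chromosome Y, outside the chromosomes used, and the Adriamycin list held 2. They are a signal in data that no comparison above used, and no list without the antibody was at hand to set a background.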

How the results depend on the processing

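The 8 results were recomputed under 7 alternatives, and the share differences and the width difference kept their sign in all of them that gave a value; the other results are counts and shares, which have no sign. Of 54 values 30 stayed within the interval of the reported value, or within 1.5 times a count. No paired analysis was possible because each group had 1 library. The difference at scores of 50 to 100 has no value with a score of at least 100. The difference from peaks with a neighbour was added after seeing the data; it was 13.7 points with an overlap of at least 50% and 35.9 points with a partner within 1000 bp, where partners of the neighbours can be counted. The following values moved, and where the setting only takes other peaks that is the cause by construction; otherwise the cause was not tested. Isolated peaks numbered 5714 with a score of at least 100, 38375 with a distance of 1000 bp and 10233 with 10000 bp. Those without an Adriamycin partner were 58.5% with a partner within 1000 bp, 32.4% with a score of at least 100, 58.7% with H3K27me3 lists of equal length (the untreated list cut to its 88363 top-scoring peaks), 57.7% with a distance of 1000 bp and 67.0% with 10000 bp. Those with H3K4me3, H3K79me2 or Pol II after Adriamycin were 6.98% with a score of at least 100, 4.10% with equal lists and 3.46% with 10000 bp. hnRNP L was at 0.298% with a score of at least 100. The median width difference was -168 bp with a score of at least 100, -111 bp with equal lists, -107 bp with 1000 bp and -95 bp with 10000 bp. Isolated Adriamycin peaks without an untreated partner were 42.9% with a partner within 1000 bp, 16.3% with a score of at least 100, 53.0% with equal lists, 43.3% with 1000 bp, 53.5% with 10000 bp and 50.2% with no other target within 1000 bp. With equal lists the shares without a partner were thus 58.7% for untreated and 53.0% for Adriamycin isolated peaks, against 63.2% and 49.2% in full. Unknown depth limits every share, since a weak peak can miss a list by a few reads.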

Other observations

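Isolated peaks occupied 2376 of the 2648 windows of 1 Mb up to the last peak of each chromosome, with a median of 8 and at most 33 in a window that held any. The fullest windows were on chromosome 5 at 129000001-130000000, where 17 of 33 isolated peaks had no Adriamycin partner, and chromosome 9 at 40000001-41000000, where 22 of 33 had none. Those on chromosome 13 at 57000001-58000000 (21 of 32 without a partner), chromosome 6 at 53000001-54000000 (20 of 32) and at 135000001-136000000 (23 of 32), and chromosome 7 at 151000001-152000000 (17 of 32) came next.

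Of the 10015 isolated Adriamycin peaks with an untreated partner, the first partner was an isolated untreated peak in 5592 (55.8%), had a neighbour in 4080 (40.7%) and overlapped another target in 541 (5.40%).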
